A study of Mus musculus with 30 samples.

Results

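The 6 arrays described here held IgE-expressing germinal centre (GC) B cells, with 3 replicates, and GFP-positive (GFP+) IgG1-expressing GC B cells, with 3 replicates, of 30 arrays in the whole series. They were chosen by their sample titles, and genes by probe sets that carry a single gene symbol in the platform annotation. The IgE GC cells were sorted as IgE+ GFP+ B220+ CD95+ CD138-, and the IgG1 GC cells as IgG1+ GFP+ B220+ CD95+ CD138-. All cells came from mesenteric lymph nodes of CeGFP BALB/c mice on day 10 of infection with Nippostrongylus brasiliensis, a gut worm that drives type-2 immunity and IgE. Every animal, in both groups, carried the knock-in of an IRES-GFP cassette behind the membrane IgE coding sequence and was infected, and no source used here states the age of the mice. GFP in these mice reports a rearrangement to the epsilon constant region rather than IgE protein, so the GFP+ IgG1 cells are the part of the IgG1 population with such a rearrangement on the chromosome that makes no antibody. Each array was a pool of 3 mice from its own sort. GFP-negative (GFP-) IgG1 GC cells (3 arrays), IgE plasma cells (4), GFP+ IgG1 plasma cells (2) and naive B cells (3) of the same experiment are used below for context.

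In a germinal centre, B cells that have met antigen divide and mutate their antibody genes in the dark zone and compete for antigen and T cell help in the light zone. The transcription factor BCL6 holds this state, and BLIMP1, IRF4 and XBP1 drive the exit into antibody-secreting plasma cells, which need an enlarged endoplasmic reticulum (ER). IgE-switched cells are known to be scarce in germinal centres and to be prone to become plasma cells. The comparison with GFP+ IgG1 cells addresses the first aim of the series, expression differences between IgE and IgG1 B cells, in cells sorted by the same markers apart from the isotype and all carrying the GFP reporter.

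No gene of 12098 tested passed an adjusted p of 0.05 between IgE GC and GFP+ IgG1 GC cells in the limma fit to the 18 arrays of the experiment (0% called). The smallest adjusted p was 0.9997, and 264 genes (2.18%) had an unadjusted p under 0.05. That share is below the 0.05 that the threshold itself gives where no gene differs. All values below are log2 signals or differences of log2 signals, IgE GC minus GFP+ IgG1 GC, so 1 unit is a 2-fold difference. Differences were small: the median absolute difference was 0.13, the extremes were 1.78 and -1.22, and 32 genes differed by at least 2-fold, 25 of them higher and 7 lower in IgE GC cells. The 95% confidence interval lay within 2-fold either way for 10446 genes (86.3%), and the median half-width of that interval was 0.49. Differences larger than 2-fold are therefore outside the interval for most genes, whereas those well under 2-fold could not be called for most genes. None of the 32 genes that differed by at least 2-fold was called either, so the test also missed observed differences of that size. In the same fit, IgE plasma cells differed from IgG1 plasma cells in 116 genes (0.959%), 95 higher and 21 lower.

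**Figure D1:**
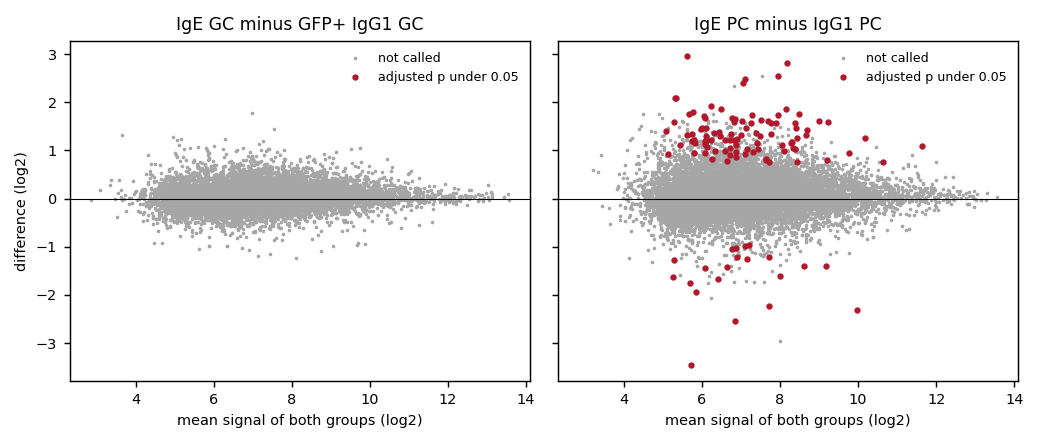
Difference of log2 signal (vertical) against the mean log2 signal of both groups (horizontal) for each of 12098 genes, in IgE minus GFP+ IgG1 GC cells on the left and in IgE minus IgG1 plasma cells (PC) on the right. Red points mark adjusted p under 0.05, of which there are 0 in GC cells and 116 in plasma cells.

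The replicate arrays were not alike, and this touches every value below. GFP+ IgG1 GC replicate 3 correlated less with its own group (mean r 0.949) than replicates 1 and 2 (0.963 each), and its mean signal over all genes tested was 6.91, against 7.02 to 7.03 in the other 5 arrays. It gave the lowest value of the 6 arrays for 4307 genes (35.6%), and the highest for 2667, more than any other array. The IgE GC arrays had a median SD of 0.18 over their 3 arrays, against 0.22 in GFP+ IgG1 GC and 0.16 in GFP- IgG1 GC. Over GFP+ IgG1 GC replicates 1 and 2 alone it was 0.12, so the IgE GC arrays were not the tighter ones apart from replicate 3. IgE GC replicate 3 correlated with its group (mean r 0.9729) like replicates 1 and 2 (0.9735 and 0.9739). It gave the highest value for 17% of all genes, about the share of any 1 of 6 arrays. It is set apart only because it gave the highest value for far larger shares of some lists described below. Values are therefore also given without either of these arrays, which are called the doubtful arrays. Where 2 such values stand together, the first is without GFP+ IgG1 GC replicate 3 and the second without IgE GC replicate 3. Over all genes tested the median difference was 0.03, with 6700 genes (55.4%) above 0 and 5398 (44.6%) below. Arrays of the groups did not overlap for 600 genes higher (4.96%) and 428 genes lower (3.54%) in IgE GC cells, which is the background for the counts of non-overlapping genes in each list. With random labels, 3 arrays separate from 3 in either direction with a probability of 0.1. Both shares together do not exceed that, so genes without overlap were no more frequent than random labels give.

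Both groups carried the expression profile of GC B cells. All 23 measured B cell identity genes and all 15 measured GC genes lay above the array median on each of the 6 arrays. Naive cells had all 23 and 9 to 10 of them above it, and IgE plasma cells 19 to 20 and 13 to 14. These counts alone thus separate the cell types little. Summed on the linear scale, the GC list reached 17084 to 17851 in IgE GC and 16257 to 17614 in GFP+ IgG1 GC arrays. It reached 6543 to 9882 in naive cells and 7868 to 8704 in IgE plasma cells. Bcl6, the repressor that defines GC cells, had 10.96, 10.91 and 10.94 in IgE GC arrays and 11.11, 10.96 and 11.01 in GFP+ IgG1 GC arrays. Those ranges meet at 10.96, and the difference was -0.09 ± 0.38 (SE). Pax5, which fixes B cell identity, differed by 0.02 ± 0.36, and Bach2, a repressor of plasma cell fate, by 0.19 ± 0.34. The B cell identity list had 13 of 23 genes above 0 and a median of 0.03, and the GC list 9 of 15 and a median of 0.06 (-0.01 without GFP+ IgG1 GC replicate 3). The heavy chain genes that name the isotypes, Ighe and Ighg1, were not analysed here, so the isotype labels were not checked by transcript.

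Gcsam, which encodes a GC-specific signalling adaptor, was the GC gene whose arrays stood furthest apart. It had 10.24, 10.43 and 10.57 in IgE GC arrays and 10.005, 10.02 and 9.47 in GFP+ IgG1 GC arrays. All 3 IgE GC values lay above all 3 GFP+ IgG1 GC values, and the difference was 0.58 ± 0.21, or 0.40 without GFP+ IgG1 GC replicate 3. Against GFP- IgG1 GC cells (9.90, 10.19 and 10.33), with the same IgE arrays, the difference was 0.27 and the values overlapped.

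Genes of the plasma cell programme lay higher in IgE GC than in GFP+ IgG1 GC cells, though none passed the test. Of 19 measured genes 18 had a difference above 0, the median was 0.51 beside 0.03 over all genes, and 7 had IgE GC arrays entirely above the GFP+ IgG1 GC arrays, with none entirely below. Those 7 were 36.8% of the list, beside 4.96% of all genes higher and 3.54% lower without overlap. The wider score of plasma cell over GC genes, described below, differed by only 0.07 (exact permutation p = 0.5), and by 0.02 without IgE GC replicate 3. Of the 19 genes, 4 were above the array median on no IgE GC array and 8 on no GFP+ IgG1 GC array, so the count and the median rest in part on dim genes. The mean signal of the 19 genes was 7.36, 7.42 and 7.86 in IgE GC arrays and 7.14, 7.19 and 7.01 in GFP+ IgG1 GC arrays, so the groups did not overlap. IgE GC replicate 3 was the highest of the 6 arrays for 16 of the 19 genes (84.2%). The median was 0.39 without GFP+ IgG1 GC replicate 3 and 0.28 without IgE GC replicate 3. In the GFP- IgG1 GC arrays the mean signal was 7.38, 7.27 and 7.20, which overlaps the IgE GC range, and against them the median difference was 0.26.

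**Figure D2:**
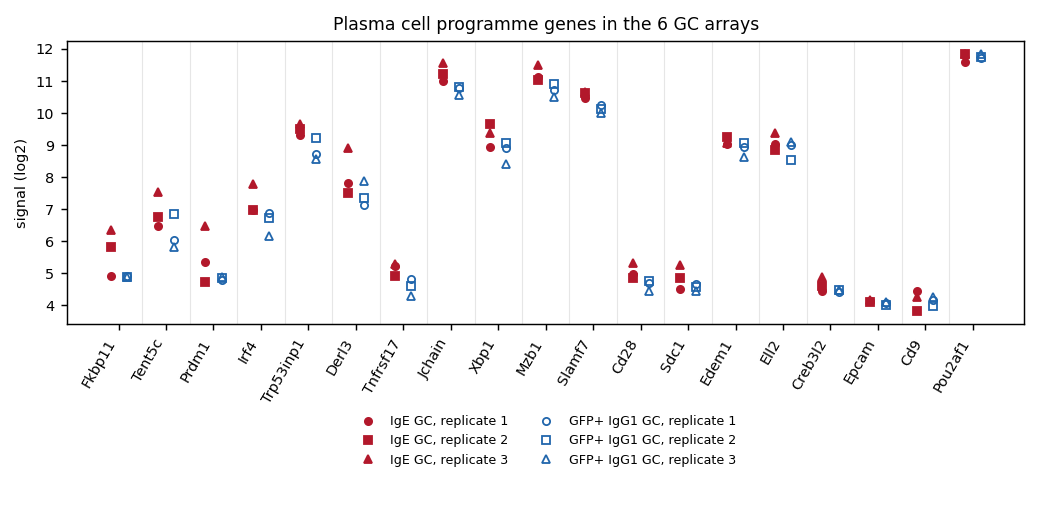
Log2 signal (vertical) of each measured plasma cell programme gene (horizontal, ordered by difference) in the 3 IgE GC arrays (filled red) and the 3 GFP+ IgG1 GC arrays (open blue), 1 symbol shape per replicate. The IgE GC triangle (replicate 3) is the highest point for 16 of 19 genes.

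The regulators of plasma cell fate differed in how far the arrays separated. Prdm1, which encodes BLIMP1, had 5.35, 4.74 and 6.49 in IgE GC arrays and 4.79, 4.85 and 4.89 in GFP+ IgG1 GC arrays. Only IgE GC replicates 1 and 3 were above the GFP+ IgG1 GC range, and the difference of 0.68 ± 0.31 was 0.20 without IgE GC replicate 3. The GFP+ IgG1 GC values of Prdm1 all lay below the array median. Irf4, which in high amounts favours plasma cells over GC cells, had 6.98, 6.98 and 7.80 in IgE GC arrays and 6.89, 6.71 and 6.16 in GFP+ IgG1 GC arrays. The groups did not overlap (0.66 ± 0.29, with 0.45 and 0.39 without either doubtful array), but GFP- IgG1 GC arrays had 7.90, 7.43 and 6.85 and the difference against them was -0.14. Xbp1, which builds the secretory ER, had 8.95, 9.65 and 9.39 in IgE GC arrays and 8.92, 9.07 and 8.42 in GFP+ IgG1 GC arrays, with a difference of 0.52 ± 0.26, 0.33 without GFP+ IgG1 GC replicate 3, and overlap of IgE GC replicate 1.

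Products and partners of secretion showed a like order. Mzb1, an ER chaperone for antibody assembly, had 11.14, 11.04 and 11.51 in IgE GC arrays and 10.73, 10.91 and 10.51 in GFP+ IgG1 GC arrays, with no overlap and a difference of 0.51 ± 0.20. Slamf7, a surface receptor of plasma cells, had 10.48, 10.63 and 10.65 in IgE GC arrays and 10.26, 10.14 and 10.001 in GFP+ IgG1 GC arrays, a difference of 0.45 ± 0.18 that was nearly the same without either doubtful array (0.39 and 0.42). Jchain, whose product joins IgM and IgA chains, differed by 0.53 ± 0.47 with no overlap. Fkbp11, a secretory prolyl isomerase, had 4.91, 5.82 and 6.35 in IgE GC arrays and 4.92, 4.89 and 4.89 in GFP+ IgG1 GC arrays. IgE GC replicate 1 thus lay at the level of GFP+ IgG1 GC, and the difference of 0.79 ± 0.31 was 0.46 without IgE GC replicate 3.

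Sdc1 encodes CD138, the surface marker by which both GC sorts excluded plasma cells. It had 4.52, 4.86 and 5.27 in IgE GC arrays and 4.68, 4.58 and 4.44 in GFP+ IgG1 GC arrays, beside 8.80 ± 0.34 (SD, n = 4) in IgE plasma cells and 4.59 ± 0.15 (SD, n = 3) in naive cells. IgE GC replicate 3 was the highest of the 6 GC arrays for Sdc1 too. Summed on the linear scale, the plasma cell list reached 11653 to 15173 in IgE GC arrays, 9860 to 10960 in GFP+ IgG1 GC arrays and 43248 to 45852 in IgE plasma cells. In such bulk samples, a few plasma cells among the sorted cells and a low level of these transcripts in many GC cells cannot be told apart.

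Genes of the unfolded protein response and the ER chaperones, which fold secreted protein, leaned the same way by a smaller amount. Of 32 genes 28 lay above 0, with a median of 0.22, and 5 did not overlap, all higher in IgE GC cells (15.6%, beside 4.96% of all genes). The median was 0.12 without GFP+ IgG1 GC replicate 3, 0.16 without IgE GC replicate 3 and 0.07 against GFP- IgG1 GC cells. IgE GC replicate 3 was the highest array for 20 of the 32 genes (62.5%) and GFP+ IgG1 GC replicate 3 the lowest for 21 (65.6%). Hsp90b1, the ER form of HSP90, had 11.02, 11.20 and 11.75 in IgE GC arrays and 10.86, 10.87 and 10.54 in GFP+ IgG1 GC arrays. Its groups did not overlap, the difference was 0.57 ± 0.17 (0.46 and 0.35 without either doubtful array), and it had the smallest p of the list. Hspa5, which encodes the chaperone BiP, had 10.46, 10.56 and 10.77 in IgE GC arrays and 10.41, 10.44 and 10.06 in GFP+ IgG1 GC arrays, again without overlap (0.29 ± 0.16, with 0.17 and 0.20 without either doubtful array). Pdia4, a disulfide isomerase, differed by 0.83 ± 0.27 and Creld2, a secreted ER stress protein, by 0.90 ± 0.35. Both of these overlapped, and without IgE GC replicate 3 their differences were 0.46 and 0.47. Without GFP+ IgG1 GC replicate 3 that of Creld2 was 0.51.

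The ER stress response element is the promoter sequence through which ATF6 and XBP1 act on chaperone genes. Its form CCAAT, 9 bases of any kind and then CCACG, searched on both strands from 250 bases before to 50 bases after each RefSeq gene start of GRCm38.p6, occurred in 37 of 27025 genes (0.137%), in 9 of 29 unfolded protein response genes (31%), in 1 of 16 plasma cell programme genes (6.25%) and in 0 of 34 genes of ER entry and vesicle transport. The sites shown are of 6 genes named in this section or in that list, picked among the genes that leaned higher. Capitals mark the fixed ends of the element, and sites are written 5′ to 3′ on the strand that carries the motif.
Hspa5 at chr2:34772025-34772043, plus strand: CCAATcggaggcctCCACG
Hsp90b1 at chr10:86705533-86705551, plus strand: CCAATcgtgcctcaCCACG
Hsp90b1 at chr10:86705638-86705656, minus strand: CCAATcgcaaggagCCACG
Creld2 at chr15:88819520-88819538, minus strand: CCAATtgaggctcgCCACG
Derl3 at chr10:75893242-75893260, minus strand: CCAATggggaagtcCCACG
Dnajc3 at chr14:118937827-118937845, plus strand: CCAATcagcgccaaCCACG
Pdia6 at chr12:17266491-17266509, plus strand: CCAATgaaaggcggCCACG
Hsp90b1 held 2 of them, and the Creld2 site also lies in the promoter window of Alg12. Of 16 genes with the element that were tested, 12 had a difference above 0, beside 55.4% of all genes. Their median was 0.12 (0.10 without GFP+ IgG1 GC replicate 3 and 0.12 without IgE GC replicate 3). Of the 16 genes 3 were higher without overlap, beside 4.96% of all genes. The members of the unfolded protein response list among them were already counted with that list, so these counts are not separate. Derl3, an ER degradation factor, and the chaperone genes Dnajc3 and Pdia6 differed by 0.63, 0.37 and 0.29, and they were picked for display after their values were seen. Of other ER genes with the element, Ero1b differed by 0.32, Calr by 0.16, Canx by -0.03 and Syvn1 by -0.005. Their sites are not shown.

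Transport into and out of the ER was measured by 42 genes, of which 32 lay above 0 with a median of 0.17, and 5 were higher and 1 lower without overlap. As shares of the list these are 11.9% and 2.4%, beside 4.96% and 3.54% of all genes. The median was 0.06 without GFP+ IgG1 GC replicate 3. Sec24d, a cargo-sorting subunit of the COPII coat that carries proteins from the ER, had 5.54, 5.47 and 6.75 in IgE GC arrays and 5.20, 4.62 and 4.81 in GFP+ IgG1 GC arrays. The groups did not overlap, and the difference of 1.05 ± 0.31 was 0.63 without IgE GC replicate 3. Its GFP+ IgG1 GC values all lay below the array median. The signal peptidase subunits Spcs3 and Sec11c differed by 0.46 ± 0.19 and 0.40 ± 0.19, both with no overlap. Without GFP+ IgG1 GC replicate 3 the difference of Spcs3 was 0.26, and that of Sec11c was 0.37.

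Dark zone and proliferation genes also lay on the IgE side. All 11 measured dark zone genes had a difference above 0, with a median of 0.21 (0.14 without GFP+ IgG1 GC replicate 3 and 0.15 without IgE GC replicate 3). Without either doubtful array 10 and 9 of them lay above 0. IgE GC replicate 3 was the highest array for 7 of the 11 (63.6%). The mean signal of the list was 9.52, 9.73 and 9.85 in IgE GC arrays and 9.49, 9.56 and 9.35 in GFP+ IgG1 GC arrays, so IgE GC replicate 1 overlapped. Mki67, the proliferation marker, had 10.98, 10.99 and 10.96 in IgE GC arrays and 10.69, 10.82 and 10.69 in GFP+ IgG1 GC arrays. These did not overlap, with a difference of 0.24 ± 0.12 that was 0.22 and 0.25 without either doubtful array. Hmces, which protects abasic sites in DNA, had 10.42, 10.53 and 10.63 in IgE GC arrays and 10.05, 10.08 and 10.18 in GFP+ IgG1 GC arrays, a difference of 0.42 ± 0.30. Cxcr4, the chemokine receptor that holds cells in the dark zone, differed by 0.12 ± 0.20 and overlapped.

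In the cell cycle lists, too, single arrays carried part of the difference. Of 35 genes of G1/S and DNA replication 30 lay above 0, with a median of 0.19, and 0.10 without GFP+ IgG1 GC replicate 3. An exception was Tk1, thymidine kinase of the DNA synthesis phase, with 8.91, 8.90 and 9.02 in IgE GC arrays and 9.50, 9.24 and 10.12 in GFP+ IgG1 GC arrays. Every IgE GC value was below every GFP+ IgG1 GC value, and the difference was -0.67 ± 0.30 (-0.42 without GFP+ IgG1 GC replicate 3). The 31 G2/M genes had a median of 0.12, which was 0.04 without GFP+ IgG1 GC replicate 3 and 0.002 without IgE GC replicate 3, the highest array for 21 of them (67.7%). Hypermutation and switch repair genes had 20 of 25 above 0 and a median of 0.12, which was 0.007 without GFP+ IgG1 GC replicate 3. Oxidative phosphorylation genes, with 24 of 27 above 0 and a median of 0.14, had GFP+ IgG1 GC replicate 3 as the lowest array for 24 genes (88.9%) and a median of -0.005 without it.

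Light zone genes lay lower in IgE GC cells as a list, again with none past the test. Of 23 genes 18 had a difference below 0, the median was -0.16, and 3 were lower and 1 higher without overlap (13.0% and 4.3%, beside 3.54% and 4.96% of all genes). The mean signal of the list was 8.22, 7.99 and 8.12 in IgE GC arrays, 8.44, 8.16 and 8.21 in GFP+ IgG1 GC arrays, and 8.59, 8.29 and 8.34 in GFP- IgG1 GC arrays. IgE GC replicate 1 overlapped the GFP+ IgG1 GC range by its 8.22, and replicate 1 was the highest array of each GC group. The median was -0.15 without GFP+ IgG1 GC replicate 3 and -0.12 without IgE GC replicate 3, and it was -0.06 without GFP+ IgG1 GC replicate 1. Against GFP- IgG1 GC cells it was -0.30, with 22 of 23 genes below 0. These comparisons share the IgE GC arrays.

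**Figure D3:**
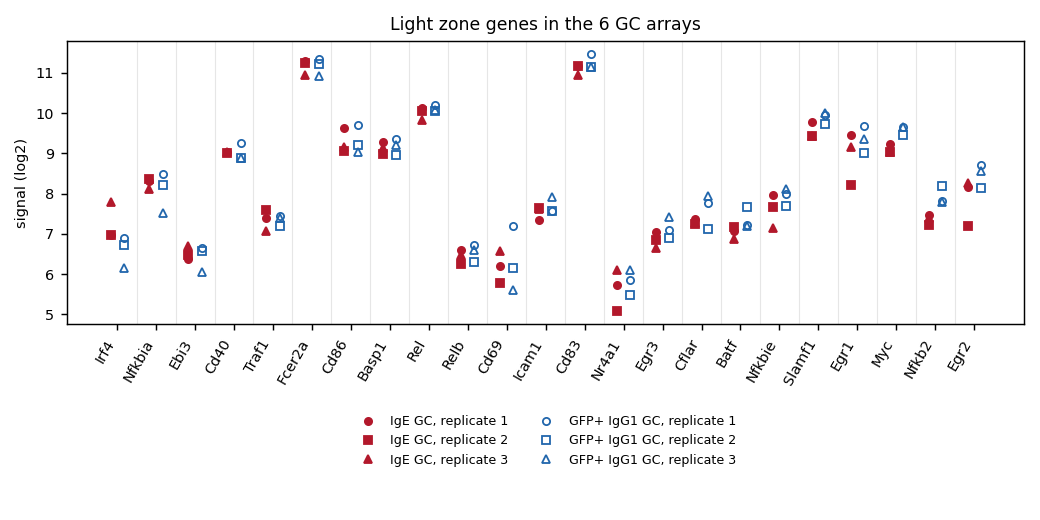
Log2 signal (vertical) of each measured light zone gene (horizontal, ordered by difference) in the 3 IgE GC arrays (filled red) and the 3 GFP+ IgG1 GC arrays (open blue). Myc and Nfkb2 at the right, and Irf4 at the left, are among the genes whose groups do not overlap.

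Myc and Nfkb2 were among the light zone genes with no overlap. Myc, which is expressed in GC cells picked for re-entry to the dark zone, had 9.23, 9.03 and 9.03 in IgE GC arrays and 9.64, 9.46 and 9.67 in GFP+ IgG1 GC arrays. The groups did not overlap, and the difference was -0.49 ± 0.32, with -0.45 and -0.46 without either doubtful array. Nfkb2, a subunit of the NF-kB pathway that CD40 drives, had 7.46, 7.23 and 7.39 in IgE GC arrays and 7.83, 8.20 and 7.80 in GFP+ IgG1 GC arrays, likewise apart (-0.58 ± 0.27). Nfkbid, which encodes an NF-kB regulator of the IkB family, had 6.35, 6.25 and 6.22 in IgE GC arrays and 6.67, 6.77 and 7.06 in GFP+ IgG1 GC arrays, a difference of -0.56 ± 0.20. The NF-kB and CD40 list had 11 of 17 genes below 0 and a median of -0.11, which was -0.01 without GFP+ IgG1 GC replicate 1. Of the 17 genes 1 was lower and 0 were higher without overlap, beside 3.54% of all genes lower. The early response genes of antigen had 11 of 17 below 0, a median of -0.09 and 0 genes without overlap. Egr2, an early response gene of the B cell receptor, differed by -0.60 ± 0.39 (-0.26 without IgE GC replicate 2) and overlapped, since IgE GC replicates 1 and 3 (8.16 and 8.26) lay above GFP+ IgG1 GC replicate 2 (8.13).

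The sort markers of the zones and the costimulators of this list did not separate. Cd86 differed by -0.04 ± 0.41 and Cd83, a surface protein of activated B cells, by -0.17 ± 0.23. Irf4, also a member of the light zone list, was its highest gene and has been given above. MYC partners and ribosome biogenesis genes had 22 of 31 below 0 and a median of -0.09, with 4 lower and 1 higher without overlap (12.9% and 3.2%, beside 3.54% and 4.96% of all genes). The median was -0.03 without GFP+ IgG1 GC replicate 2 and -0.23 without GFP+ IgG1 GC replicate 3, where 12 of the 31 were lower without overlap (beside 9.35% of all genes under that setting). Polr1b, a subunit of RNA polymerase I, had 6.04, 6.22 and 6.15 in IgE GC arrays and 6.39, 6.54 and 6.46 in GFP+ IgG1 GC arrays, a difference of -0.32 ± 0.20 with no overlap.

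**Figure D4:**
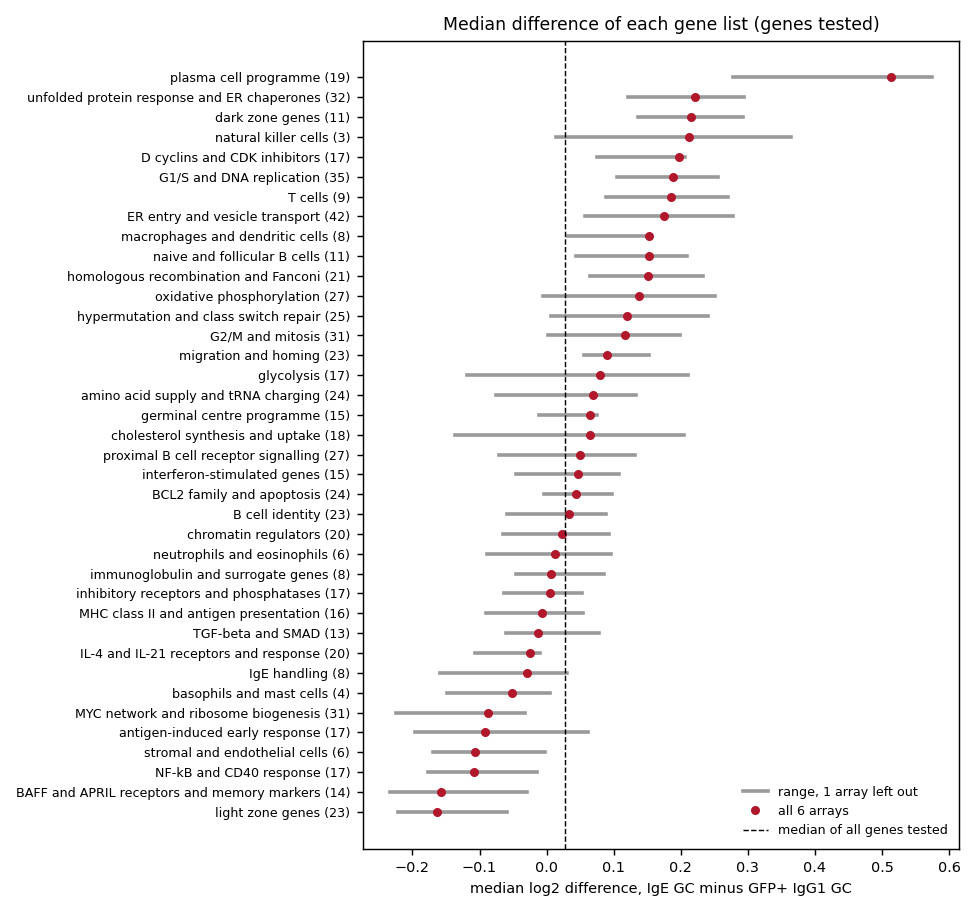
Median log2 difference, IgE GC minus GFP+ IgG1 GC (horizontal), of each of 38 gene lists (vertical, with the number of genes tested). Red points use all 6 arrays, grey bars span the values with 1 array left out, and the dashed line is the median of all genes tested, 0.03. The plasma cell programme is highest (0.51, from 0.28) and the light zone list lowest (-0.16).

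The second experiment of the series, on dark and light zone IgG1 GC cells, gave zone genes that did not use the 6 arrays. Of 432 genes higher in the dark zone 332 (76.9%) had a difference above 0, with a median of 0.15. Without GFP+ IgG1 GC replicate 3, 286 of them had one above 0 and the median was 0.07. Of 330 genes higher in the light zone 200 had a difference below 0, with a median of -0.06. Over 10 alternatives that median ran from -0.17 to 0.01, and it was above 0 in 1 of them, without GFP+ IgG1 GC replicate 1. It was -0.12 without GFP+ IgG1 GC replicate 3 and -0.03 without IgE GC replicate 3. The zone score, the mean of the dark zone genes minus the mean of the light zone genes, was 0.50, 0.84 and 0.81 in IgE GC arrays and 0.36, 0.64 and 0.46 in GFP+ IgG1 GC arrays. IgE GC replicates 2 and 3 lay above all GFP+ IgG1 GC arrays and replicate 1 within them. Replicate 1 had the lowest score in each GC group (0.25 in GFP- IgG1 GC cells). Each IgE GC array lay above the GFP+ IgG1 GC array of the same number. The difference of 0.23 had a p of 0.2 by a two-sided exact permutation test, which did not use replicate numbers. In that test 3 arrays against 3 cannot go below 0.1. For scale, the same genes differed by 1.38 between dark and light zone cells. A score of plasma cell over GC genes differed by 0.07 (exact permutation p = 0.5), of a range of 2.48 between these stages, and a score of naive over GC genes by -0.08 (exact permutation p = 0.6). Over those 3 scores no p was below 0.2, and adjustment cannot lower it.

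**Figure D5:**
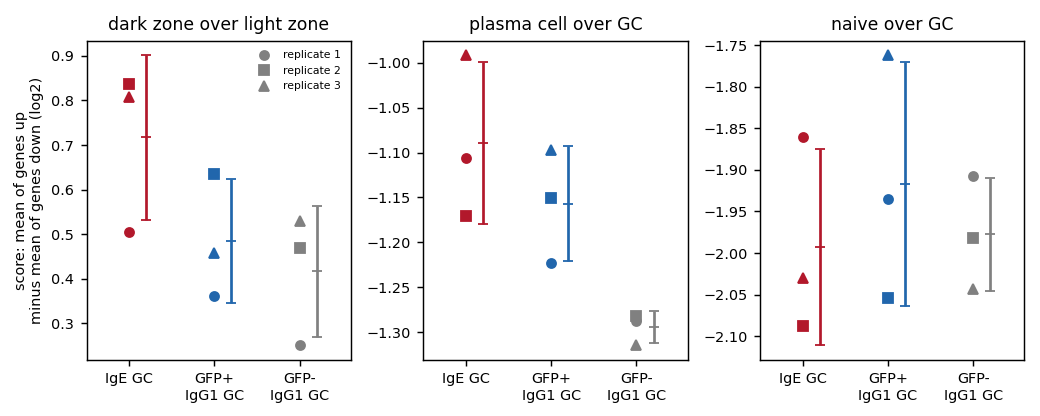
Score of each GC array (vertical, mean log2 signal of genes up minus that of genes down) for signatures of dark over light zone, plasma cell over GC and naive over GC, in IgE, GFP+ IgG1 and GFP- IgG1 GC cells (horizontal). Symbols are replicates and bars the mean ± SD (n = 3); the GFP- arrays helped to choose the genes of the middle and right panels. In the left panel IgE GC replicates 2 and 3 (0.84 and 0.81) lie above all IgG1 arrays.

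B cell receptor signalling was of interest because membrane IgE signals through the same chains as other isotypes. Of 27 genes 17 lay above 0, with a median of 0.05 (-0.07 without GFP+ IgG1 GC replicate 3), 1 higher and 3 lower without overlap. These were 3.7% and 11.1% of the list, beside 4.96% and 3.54% of all genes. Cd79a and Cd79b, the signalling chains, differed by 0.17 ± 0.16 and 0.21 ± 0.18. The kinases Syk and Btk differed by 0.34 ± 0.24 and 0.25 ± 0.28, with overlap. Without GFP+ IgG1 GC replicate 3 the differences were 0.07 for Cd79a, 0.08 for Cd79b, 0.16 for Syk and -0.09 for Btk. The adaptor gene Blnk differed by -0.10 ± 0.19. Dok3, an adaptor that restrains receptor signals, was the 1 gene of the list that was higher without overlap. It had 8.63, 8.65 and 8.95 in IgE GC arrays and 8.18, 8.19 and 7.94 in GFP+ IgG1 GC arrays, a difference of 0.64 ± 0.28. Inhibitory receptors and phosphatases had a median of 0.01 over 17 genes.

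The lowest gene of both the B cell identity list and the list of IgE handling was a complement receptor gene. Cr2, which encodes CD21, had 9.15, 8.85 and 9.28 in IgE GC arrays and 9.99, 9.37 and 9.87 in GFP+ IgG1 GC arrays. The highest IgE GC array was below the lowest GFP+ IgG1 GC array, and the difference was -0.65 ± 0.23, with -0.59 and -0.74 without either doubtful array. GFP- IgG1 GC arrays had 10.32, 9.86 and 10.24, and the difference against them was -1.04. Fcer2a, which encodes the low-affinity IgE receptor CD23, had 11.31, 11.24 and 10.94 in IgE GC arrays and 11.34, 11.22 and 10.93 in GFP+ IgG1 GC arrays, a difference of 0.00 ± 0.34. In plasma cells Fcer2a was 2.55 ± 0.36 higher in IgE than in IgG1 cells (adjusted p = 0.00161 in limma), and the test of the gap between the GC and plasma cell differences gave an adjusted p of 0.0594 in limma.

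Memory-associated genes leaned lower. The list of BAFF and APRIL receptors and memory markers had 10 of 14 genes below 0 and a median of -0.16, or -0.23 without GFP+ IgG1 GC replicate 3, -0.09 without IgE GC replicate 3, -0.03 without GFP+ IgG1 GC replicate 1 and -0.41 against GFP- IgG1 GC cells. Hhex, a transcription factor needed for memory B cells in mice, had 5.28, 4.61 and 5.45 in IgE GC arrays and 7.18, 5.66 and 5.61 in GFP+ IgG1 GC arrays. Although the groups did not overlap, GFP+ IgG1 GC replicate 1 stood far above the rest, and the difference of -1.04 ± 0.42 was -0.53 without it. Its partner Tle3 differed by -0.50 ± 0.21 and overlapped.

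Lists of survival, cytokine response and movement genes had small medians, of 0.04, -0.02 and 0.09. Bcl2 differed by 0.20 ± 0.45 (95% confidence interval -0.74 to 1.15), Mcl1 by 0.20 ± 0.16 (0.09 without GFP+ IgG1 GC replicate 3), Bcl2l1 by -0.07 ± 0.24 and the pro-apoptotic Bcl2l11 by -0.05 ± 0.30, in the survival list of 24 genes. Casp9, the initiator caspase of the mitochondrial pathway, had 6.64, 7.01 and 6.70 in IgE GC arrays and 6.37, 6.40 and 6.05 in GFP+ IgG1 GC arrays, which did not overlap (0.51 ± 0.21). It was the 1 gene of the 24 (4.2%) that was higher without overlap, beside 4.96% of all genes. The receptors Il4ra and Il21r, through which T cells promote class switching and GC growth, differed by 0.03 ± 0.28 and -0.03 ± 0.37. Of the same list, Il6ra, a chain of the interleukin-6 receptor, differed by -0.36 ± 0.21 with no overlap, and Il6st, its signalling partner, by 0.62 ± 0.32 with overlap. Among receptors that place cells in the lymph node, S1pr2 differed by 0.09 ± 0.22, Cxcr5 by 0.08 ± 0.29, Gpr183 by 0.26 ± 0.28 (-0.04 without GFP+ IgG1 GC replicate 3) and S1pr1, the egress receptor, by 0.58 ± 0.30 with overlap (0.37 without GFP+ IgG1 GC replicate 3). S1pr4, a related receptor, differed by -0.35 ± 0.26 with no overlap, and the integrin chain gene Itgb1 by -0.40 ± 0.25 with overlap.

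Beyond the lists, the smallest p values among genes with no overlap were mostly of genes outside these programmes. Lgr5, a receptor for R-spondins known from stem cells and from germinal centre cells, had the smallest p of all genes. It had 6.47, 7.07 and 6.55 in IgE GC arrays and 5.70, 5.98 and 5.78 in GFP+ IgG1 GC arrays, a difference of 0.87 ± 0.20 that was 0.85 and 0.95 without either doubtful array. GFP- IgG1 GC arrays had 5.70, 6.25 and 5.49, and the difference against them was 0.89. Over all genes, the IgE GC arrays lay above all 6 IgG1 GC arrays, GFP+ and GFP-, for 163 (1.35%) and below all of them for 93 (0.769%). The other 11 genes of the 12 at the higher end differed by 0.57 to 1.21. Cyp2r1, a vitamin D 25-hydroxylase, was the largest (6.04, 5.16 and 5.82 in IgE GC arrays, against 4.28, 4.92 and 4.21 in GFP+ IgG1 GC arrays), but its difference against GFP- IgG1 GC cells was 0.17. Its GFP+ IgG1 GC values and the 5.16 lay below the array median. Cst3, a cysteine protease inhibitor, differed by 1.02 ± 0.30, and Slc36a4, an amino acid transporter, by 0.80 ± 0.20.

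At the lower end, the 12 genes differed by -0.46 to -1.02. Plpp1, a lipid phosphatase, had 6.91, 6.26 and 6.11 in IgE GC arrays and 7.45, 7.11 and 7.10 in GFP+ IgG1 GC arrays, a difference of -0.79 ± 0.22. Marcks, a membrane-bound substrate of protein kinase C, had 5.84, 6.12 and 5.86 in IgE GC arrays and 6.53, 6.50 and 6.42 in GFP+ IgG1 GC arrays, a difference of -0.55 ± 0.16. Its value against GFP- IgG1 GC cells was -0.59. Bhlhe40, a transcriptional repressor of activated lymphocytes, had 4.92, 5.89 and 5.35 in IgE GC arrays and 6.95, 6.23 and 5.93 in GFP+ IgG1 GC arrays. All IgE GC values were lower, although IgE GC replicate 2 was close to GFP+ IgG1 GC replicate 3, and the difference was -0.98 ± 0.30. The largest, Frat1 (-1.02 ± 0.34), was -0.56 without GFP+ IgG1 GC replicate 3, which alone had 8.15.

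Some markers of other cell types were above the array median in both groups. Of 13 T cell markers 5 to 7 were above it in IgE GC arrays and 4 to 5 in GFP+ IgG1 GC arrays, and of 17 macrophage and dendritic cell markers 3 to 6 in IgE GC arrays and 3 to 5 in GFP+ IgG1 GC arrays. Of 13 basophil and mast cell markers 2 to 3 were above it in IgE GC arrays and 3 to 4 in GFP+ IgG1 GC arrays. The 13 T cell markers summed to 619 to 898 in IgE GC arrays and 583 to 765 in GFP+ IgG1 GC arrays, beside 851 to 1059 in naive B cells. Of 9 tested 7 lay above 0 with a median of 0.19. Cd3d and Icos, 2 of the 9, were higher in IgE GC cells without overlap, beside 4.96% of all genes, and 0 were lower. Cd3d, a chain of the T cell receptor complex, had 5.50, 4.48 and 4.92 in IgE GC arrays and 4.14, 4.32 and 4.33 in GFP+ IgG1 GC arrays. Of these values only the 5.50 of IgE GC replicate 1 lay above the array median. IgE GC replicate 1 was the highest array for 5 of the 9 tested T cell genes, and it was the highest for 1 of 19 plasma cell programme genes. Macrophage and dendritic cell markers summed to 596 to 675 in IgE GC arrays and 613 to 661 in GFP+ IgG1 GC arrays, and basophil and mast cell markers to 370 to 416 in IgE GC arrays and 388 to 417 in GFP+ IgG1 GC arrays. The part of these signals in the differences above was not tested.

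The isotype difference in GC cells was set against that in plasma cells by an interaction term, which 11 genes passed (0.0909%), 3 with a higher (0.0248%) and 8 with a lower (0.0661%) difference in GC cells. Apart from Isoc1, their GC differences lay between -0.46 and 0.58 and their plasma cell differences between -3.46 and 2.96, the smallest in size being 1.22. Gcsam had 8.18, 8.64, 8.15 and 8.43 in IgE plasma cells and 6.23 and 5.50 in IgG1 plasma cells, so its isotype difference was 0.58 in GC cells and 2.48 in plasma cells (difference of the differences -1.90 ± 0.31, adjusted p = 0.0268 in limma). This passed in 7 of 16 alternatives, with a highest adjusted p of 0.108. With only the arrays of the groups compared 1 gene passed, and 5 did with a replicate block. Ifitm3, an interferon-induced membrane protein, had 4.38, 4.19 and 3.88 in IgE GC arrays and 4.53, 4.47 and 4.46 in GFP+ IgG1 GC arrays, all below the array median. It passed the filter on low signals through plasma cell arrays, so its GC difference is one of dim signals. In plasma cells its IgE minus IgG1 difference was -3.46 (interaction 3.12 ± 0.40, adjusted p = 0.00688 in limma). Isoc1 had the largest GC difference of the 11 (0.75 ± 0.28, with 0.43 without IgE GC replicate 3) and a plasma cell difference of -1.60 ± 0.30. IgG1 plasma cells had 2 arrays only, and the number of genes past this test fell to as few as 2 when 1 array was left out.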

How the data were processed

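The deposited values are log2 signals from Affymetrix Mouse Gene ST arrays, made by the authors by robust multi-array averaging (RMA) with R 2.15.2, as the submitters' processing notes name them. Amplification started from 2 ng of RNA and 5 ug of the cDNA was biotinylated, per the labels' protocols. RMA brings the arrays towards a common distribution, which hides a change in total RNA per cell, and compresses folds of dim genes. The deposited arrays still differed, with an SD over probe sets of 2.08 in GFP+ IgG1 GC replicate 3 and 2.17 in replicates 1 and 2. No source used here gives hybridisation batches, and none was tested.

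Of 34760 probe sets, 21640 carried 1 gene symbol, 1321 several and 11799 none, and those with several or none were left out. Of the first, 21553 matched a RefSeq gene ID. Each of 19937 genes kept its probe set with the highest mean, and 12098 genes above the array median on at least 2 of 18 arrays were tested. Differences came from limma 3.58.1 in R 4.3.3 (lmFit and eBayes on all 18 arrays), with Benjamini-Hochberg adjustment over all genes tested and a threshold of 0.05. The script was first tested on simulated data. Errors are SE of the fit or SD over arrays. With 3 arrays a group, the number of arrays limits the precision. Figures used matplotlib 3.10.9 under python 3.11.15.

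The 38 gene lists (756 entries, 628 of them tested, with some genes in several lists) came from textbook knowledge. The comparison, members and lists were chosen with earlier results of these data known. Lists are described by counts and medians, with no test. Single genes were named by a rule: the 12 higher and 12 lower genes with the smallest p among those without overlap, a panel of 37 genes, the 3 genes of each list with the largest moderated t, and up to 10 genes of the interaction. Alternatives were other sets of arrays, filters, probe set choice, array weights, quantile normalization, a replicate block, and leaving out each array. Comparing with both IgG1 GC groups together was added after seeing the data.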

Additional observations from a re-analysis of the deposited data

Results flagged for a closer look

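The isotype difference in GC cells (IgE minus GFP+ IgG1) differed from that in plasma cells (IgE minus IgG1) by an interaction term in limma for 11 genes. Of these, 3 had a higher value in GC cells. The GC difference minus the plasma cell difference was 3.12 for Ifitm3, 2.35 for Isoc1 and 2.22 for Smad3, the signal transducer of TGF-beta. It was -2.79 for Enam, -2.23 for Slc7a3, -2.03 for Amn1, -1.92 for Hvcn1, -1.90 for Gcsam, -1.52 for Samsn1, -1.48 for Cilk1 and -1.38 for Ulk2. Ifitm3 passed in 16 of 16 alternatives, Smad3 in 15, Enam in 14 and Hvcn1, a proton channel gene, in 12, whereas the other 7 passed in 3 to 7. Enam averaged 7.10 ± 0.18 (SD, n = 4) in IgE plasma cells, against 3.72 and 4.58 in the IgG1 plasma cell arrays, and 3.72 ± 0.37 in IgE GC arrays, against 3.55 ± 0.57 in GFP+ IgG1 GC arrays (SD, n = 3 each). Ifitm3, Enam and Slc7a3 were below the array median on all 6 GC arrays and passed the filter on low signals through plasma cell arrays, so their interactions rest on the plasma cell difference. The 16 alternatives include fits without an IgG1 plasma cell array, which leave 1 array in that group.

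Samsn1 in IgE plasma cells had 1 array far from the others (9.61, against 9.33 to 9.37 in the other 3), a deviation that chance gives in about 1 of 20 groups. Its interaction passed in 3 of 16 alternatives.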

How the results depend on the processing

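No gene was called between IgE GC and GFP+ IgG1 GC cells in any of 19 alternatives in limma. The smallest adjusted p was 0.614, and the number of genes at an unadjusted p under 0.05 ran from 163, without GFP+ IgG1 GC replicate 3, to 593, with array weights. Of 160 named genes 135 had the same sign in all 18 alternatives run on them, and none passed in any. Against GFP- IgG1 GC cells 0 genes were called in 10 alternatives as well (smallest adjusted p 0.0928). The interaction of isotype and stage, with 11 genes, gave 1 with only the arrays of the groups compared and 5 with a replicate block. With 1 array left out it gave 2 to 37 genes, the highest counts without either IgG1 plasma cell array (35 and 37). Over 10 alternatives the dark over light zone score difference of 0.23 ran from 0.17 to 0.47. The highest came when zone genes also had to differ 2-fold, which keeps genes with larger differences between the zones. Without GFP+ IgG1 GC replicate 3 the score difference was 0.22 (exact permutation p = 0.3). Without IgE GC replicate 3 it was 0.19 (exact permutation p = 0.4). Whether the replicate numbers pair the arrays was not settled. Deviations of arrays with the same number correlated at 0.005, 0.222 and 0.079, against -0.2 to 0.121 for arrays with different numbers. The mean signal of the light zone list ran in the same order of replicates in each GC group. The block left the main count at 0. Quantile normalization moved the median of all genes to -0.006. With it, the ER entry median went from 0.17 to 0.10 and the dark zone median from 0.21 to 0.16. The light zone median went from -0.16 to -0.20. With 3 arrays a group and a median SE of 0.23, differences well under 2-fold could not be called for most genes. Nor was any of the 32 observed differences of at least 2-fold called.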

Other observations

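Several gene groups gave values near those of all genes. Glycolysis genes had 11 of 17 above 0 and a median of 0.08, which was -0.12 without GFP+ IgG1 GC replicate 3. Cholesterol synthesis and uptake had a median of 0.06, and -0.14 without that array. MHC class II and antigen presentation genes had a median of -0.01 over 16 genes, interferon-stimulated genes 0.05 over 15, and chromatin regulators 0.02 over 20. Among interferon-stimulated genes 2 were higher and 2 lower without overlap, beside 4.96% and 3.54% of all genes. Isg20, an RNA exonuclease, had 7.33, 7.01 and 7.25 in IgE GC arrays and 6.89, 6.89 and 6.31 in GFP+ IgG1 GC arrays. Its difference was 0.50 ± 0.27 with no overlap (0.31 without GFP+ IgG1 GC replicate 3). Irf9 differed by -0.27 ± 0.19, also with no overlap.

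Set against all 6 IgG1 GC arrays, GFP+ and GFP-, the plasma cell programme had 4 of 19 genes with all IgE GC arrays higher and the ER entry list 4 of 42, beside 1.35% of all genes, and neither list had a gene with all IgE GC arrays lower. Other lists had such genes too: 2 of 11 dark zone genes, 2 of 25 hypermutation and switch repair genes and 1 of 9 T cell markers. The unfolded protein response and ER chaperone list had 1 of 32.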
